A study of Homo sapiens with 12 samples.

Results

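The APOBEC3 enzymes are DNA cytosine deaminases, and their transcripts were followed here in 2 established human acute myeloid leukaemia lines given vehicle or selinexor. The members were chosen by symbol: APOBEC3A, APOBEC3B, APOBEC3C, APOBEC3D, APOBEC3F, APOBEC3G and APOBEC3H, 7 of the 18304 genes in the count tables of the 2 lines. All 7 are in the OCI-AML2 table of 17099 genes and 6 are in the MOLM-13 table of 16820 genes, in which APOBEC3A has no row. The family was picked because APOBEC3B was among the larger decreases in MOLM-13, where it ranked 7 by log2 fold change among all genes tested. The MOLM-13 differences of the members are therefore given as a description with no p-value, and so are differences between the lines. Where members are counted as called on MOLM-13 values, the count stands beside that of all genes and nothing is read from it.

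The 4 groups were OCI-AML2 with DMSO as vehicle, OCI-AML2 with 200 nM selinexor, MOLM-13 with DMSO and MOLM-13 with 75 nM selinexor, all harvested after 36 h, with 3 libraries in each group that the submitters describe as biologically independent. Selinexor is an oral small molecule that binds XPO1, the receptor that carries proteins with a leucine-rich export signal out of the nucleus. The dose differed with the line, so line and dose cannot be told apart. Both lines are labelled as leukaemic blasts and were grown in RPMI with serum, and each is a single culture model with no other cells added.

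APOBEC3 enzymes turn cytosine into uracil in single-stranded DNA, and are known for mutating the reverse transcripts of retroviruses such as HIV-1 and of endogenous retroelements. APOBEC3B is found in the nucleus, and its activity leaves mutations at TC dinucleotides in many tumours. Its gene is known to be held down by the DREAM complex outside the later cell cycle phases and by an E2F6 form of Polycomb complex PRC1.6, and to be activated by B-MYB and by NF-kB. APOBEC3D, APOBEC3F, APOBEC3G and APOBEC3H restrict HIV-1 that lacks Vif, while APOBEC3A is typical of monocytes exposed to interferon.

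The 7 genes lie head to tail on the plus strand of chromosome 22 (GRCh38, GENCODE 29 annotation), from the start of APOBEC3A at 38952741 to the end of APOBEC3H at 39104067. APOBEC3B spans chr22:38982347-38992804, APOBEC3C chr22:39014083-39020352, APOBEC3D chr22:39021113-39033276, APOBEC3F chr22:39040604-39053910, APOBEC3G chr22:39077005-39087743 and APOBEC3H chr22:39097224-39104067. In the coding sequences, 1 zinc-binding deaminase motif was found in APOBEC3A, APOBEC3C and APOBEC3H, and 2 were found in APOBEC3B, APOBEC3D, APOBEC3F and APOBEC3G. The sequences below show how alike the members are where the enzyme binds zinc, which bears on how reads can be assigned to them. Each is 60 coding bases within 1 exon, 5′ to 3′, ending with the proline and cysteine codons of the last zinc-binding motif, and capitals mark bases that differ from APOBEC3B.
APOBEC3A, chr22:38961456-38961515: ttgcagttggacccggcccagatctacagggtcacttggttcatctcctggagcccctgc
APOBEC3B, chr22:38991401-38991460: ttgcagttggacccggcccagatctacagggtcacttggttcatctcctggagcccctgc
APOBEC3C, chr22:39017823-39017882: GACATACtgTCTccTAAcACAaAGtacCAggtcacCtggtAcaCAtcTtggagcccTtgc
APOBEC3D, chr22:39031751-39031810: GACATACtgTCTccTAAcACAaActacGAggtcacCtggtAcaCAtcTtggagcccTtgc
APOBEC3F, chr22:39052131-39052190: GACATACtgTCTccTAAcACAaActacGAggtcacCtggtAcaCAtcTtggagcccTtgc
APOBEC3G, chr22:39086348-39086407: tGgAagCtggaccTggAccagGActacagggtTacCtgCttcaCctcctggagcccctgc
APOBEC3H, chr22:39101282-39101341: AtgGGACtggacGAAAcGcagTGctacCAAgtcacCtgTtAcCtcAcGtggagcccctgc

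The APOBEC3A and APOBEC3B windows were identical, as were those of APOBEC3D and APOBEC3F, and APOBEC3G differed from APOBEC3B at 11 of the 60 bases. Over the whole transcripts, 15.2% of the 100-base stretches of APOBEC3B occur in another member, against 13.5% for APOBEC3F, 11.3% for APOBEC3G, 9.72% for APOBEC3A, 9.18% for APOBEC3D and 0% for APOBEC3C and APOBEC3H. Counts of APOBEC3B, APOBEC3D, APOBEC3F and APOBEC3G are therefore less certain than those of APOBEC3C and APOBEC3H. An annotated transcript of APOBEC3A runs from chr22:38957522-38992778 into APOBEC3B, and the 2 genes share 348 exonic bases, 18.4% of the APOBEC3B exons. The antisense gene APOBEC3B-AS1, chr22:38991559-38998209 on the minus strand, overlaps 244 exonic bases of APOBEC3B (12.9% of its exons). The libraries were not strand-specific, so reads from that overlap cannot be given to a strand.

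Library totals were 8650518 to 11769061 counts in OCI-AML2 and 8114892 to 9711704 in MOLM-13, and 3 counts in a library correspond to 0.255 to 0.347 and 0.309 to 0.37 CPM, that is counts per library size after scaling; below this floor counting error alone can give 0. Genes passed a filter on low counts before testing with edgeR's quasi-likelihood F test, and a gene was called at a Benjamini-Hochberg adjusted p under 0.05 over all genes tested. In each line 4 of the members passed that filter: APOBEC3B, APOBEC3C and APOBEC3G in both, APOBEC3F in OCI-AML2 and APOBEC3H in MOLM-13. The 4 members tested were called in each line, 3 higher and 1 lower with selinexor, and their groups did not overlap. In OCI-AML2 this stands beside 63.1% of all genes tested that were called, 31.3% higher and 31.8% lower, and 66.3% whose groups did not overlap, 33% higher and 33.3% lower. In MOLM-13 it stands beside 63.6% called, 31.8% higher and 31.8% lower, and 65.5% without overlap, 32.7% higher and 32.8% lower. APOBEC3F in OCI-AML2 and APOBEC3H in MOLM-13 had 1 vehicle library each above the filter's level and entered through their selinexor libraries, so these counts of members are no support for a change of the family as a whole.

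APOBEC3B, the nuclear member with a pair of deaminase domains, was lower with selinexor in both lines. In OCI-AML2 its level was 6.486, 5.221 and 4.746 CPM in the vehicle libraries and 3.418, 2.478 and 1.681 CPM with selinexor. Every selinexor library lay below every vehicle library, on 179 vehicle and 68 selinexor counts in all. The log2 fold change (selinexor over vehicle) was -1.12 ± 0.251 (SE, n = 3 and 3, edgeR adjusted p = 0.000158), and the gene ranked 247 among all genes by decrease. In bulk RNA, fewer cells that make a transcript and less of it per cell cannot be told apart.

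In MOLM-13 APOBEC3B was at 13.35, 12.02 and 11.4 CPM with vehicle and at 2.074, 1.667 and 2.621 CPM with selinexor. These values chose the family. The vehicle level was above that of OCI-AML2, 12.3 ± 0.999 against 5.48 ± 0.899 CPM (SD, n = 3), though the tables of the 2 lines were scaled separately, while the ranges with selinexor overlapped. The log2 fold change was -2.54 ± 0.217, and the authors' deposited table gives -2.556 once its sign is turned to selinexor over vehicle. The difference between the lines in log2 fold change, MOLM-13 minus OCI-AML2, was -1.46 ± 0.352 (SE).

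APOBEC3B-AS1, the long noncoding gene read from the other strand across the end of APOBEC3B, is no member of the family but shares its locus. In MOLM-13 it was at 6.07, 6.34 and 5.334 CPM with vehicle and at 0.3456, 0.5208 and 0.4993 CPM with selinexor, a log2 fold change of -3.65 ± 0.365. Its counts per APOBEC3B count were 0.483 ± 0.0384 with vehicle and 0.223 ± 0.0779 with selinexor (SD, n = 3), and the libraries of the 2 groups did not overlap in this ratio. Those selinexor ratios rest on 3, 5 and 4 antisense counts over 18, 16 and 21 APOBEC3B counts. Counts given to the antisense gene thus fell by a larger factor than those of APOBEC3B in that line, but at or near the floor. Of the antisense exons, 35.3% overlap APOBEC3B exons, where reads cannot be given to a strand. In OCI-AML2 it went from 1.956, 2.486 and 3.045 CPM to 0.825, 2.047 and 0.8405 CPM (log2 fold change -1.01 ± 0.357), with 1 selinexor library above the lowest vehicle library. No p-value is given, since the gene passed the filter through its vehicle libraries, with 1 selinexor library above the filter's level. The ratio to APOBEC3B there was 0.473 ± 0.17 with vehicle and 0.522 ± 0.293 with selinexor, a difference smaller than the spread.

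**Figure D1:**
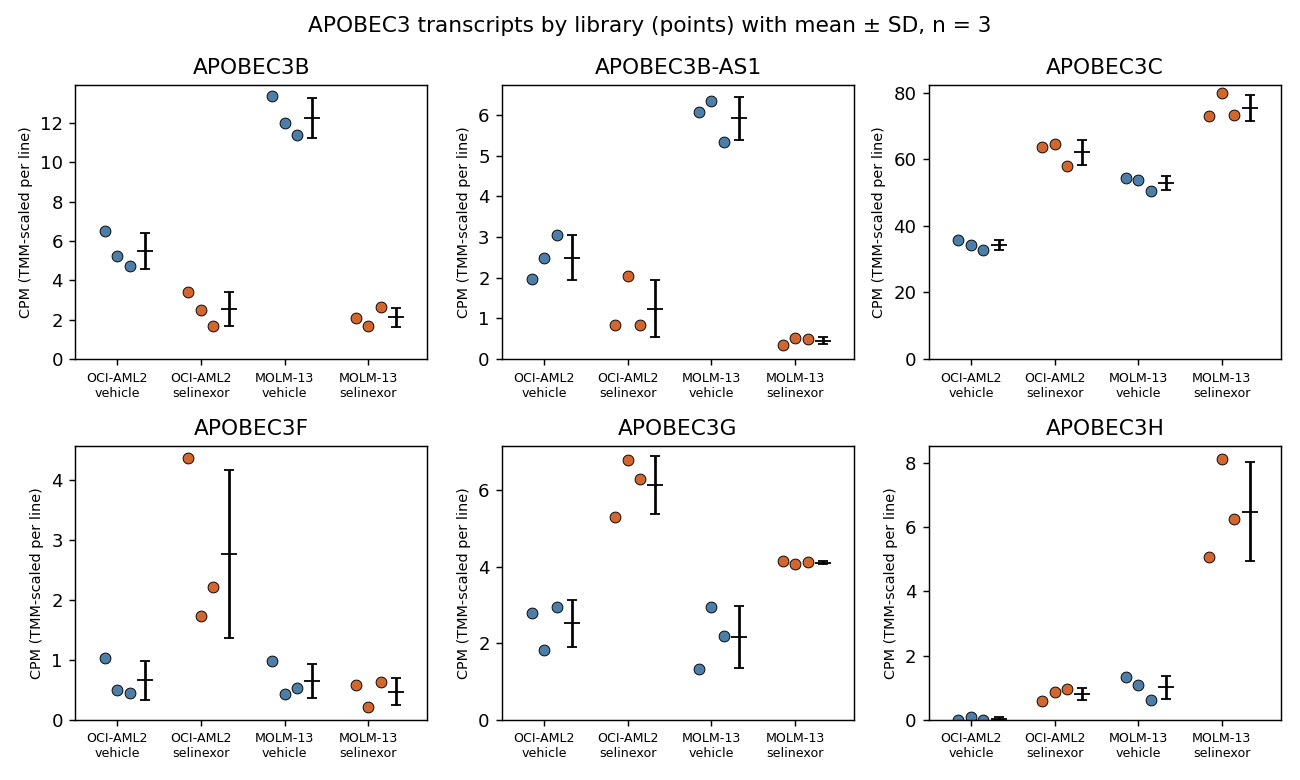
Level of APOBEC3B, APOBEC3B-AS1, APOBEC3C, APOBEC3F, APOBEC3G and APOBEC3H in each of the 12 libraries. The vertical axis is CPM scaled within each line, points are libraries (blue vehicle, orange selinexor), and the bars beside them are the mean ± SD of 3. APOBEC3B in MOLM-13 drops from 11.4 to 13.35 CPM down to 1.667 to 2.621 CPM, while APOBEC3C and APOBEC3G sit higher with selinexor in both lines.

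APOBEC3C, a small enzyme with a single deaminase domain and weak activity against HIV-1, was the most abundant member in every group and higher with selinexor in both lines. In OCI-AML2 it rose from 35.72, 34.39 and 32.87 CPM to 63.64, 64.75 and 57.89 CPM. The log2 fold change was 0.86 ± 0.0725 (edgeR adjusted p = 7.57e-14), a 1.81-fold rise, and the groups were far apart against their spread. In MOLM-13 the vehicle libraries were at 54.39, 53.89 and 50.52 CPM and the selinexor libraries at 72.92, 80 and 73.27 CPM, a log2 fold change of 0.51 ± 0.0662, and the authors' deposited table gives 0.4997. The difference between the lines, MOLM-13 minus OCI-AML2, was -0.39 ± 0.0993.

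APOBEC3G, the member first known as the target of HIV-1 Vif, was present at a few CPM. In OCI-AML2 it rose from 2.78, 1.823 and 2.955 CPM to 5.303, 6.787 and 6.304 CPM, with a log2 fold change of 1.30 ± 0.237 (edgeR adjusted p = 7.61e-06). In MOLM-13 it was at 1.335, 2.951 and 2.196 CPM with vehicle and at 4.147, 4.062 and 4.119 CPM with selinexor. The selinexor libraries lay above all vehicle libraries in both lines. The MOLM-13 log2 fold change was 0.91 ± 0.287, and without vehicle library 1, the lowest of that group, it was 0.67. The difference between the lines was -0.44 ± 0.385, within 2 SE of 0.

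APOBEC3F, a paired-domain member that also acts on Vif-deficient HIV-1, was measured on few counts and passed the filter in OCI-AML2 alone. In OCI-AML2 its counts were 10, 6 and 5 with vehicle and 37, 16 and 21 with selinexor, or 1.03, 0.4973 and 0.4478 CPM against 4.36, 1.724 and 2.206 CPM. The log2 fold change was 2.07 ± 0.416. No p-value is given for it, since the gene passed the filter through its selinexor libraries, with 1 vehicle library above the filter's level. Selinexor library 1 stood above the other 2, all of them above the vehicle libraries. In MOLM-13 its counts were 8, 4 and 5 with vehicle and 5, 2 and 5 with selinexor, too few to pass the filter. The ratio of summed counts per total count there was 0.708 (95% exact interval 0.308 to 1.573, counting error only), so no change was detectable at this depth. The difference between the lines was -2.57 ± 0.776.

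APOBEC3H, a single-domain member known for unstable protein variants, was higher with selinexor in both lines. In MOLM-13 it was at 1.335, 1.093 and 0.6275 CPM with vehicle (27 counts in all) and at 5.069, 8.125 and 6.241 CPM with selinexor (172 counts). The log2 fold change of 2.68 ± 0.305 was the largest among the members tested in that line, and the authors' deposited table gives 2.675. In OCI-AML2 its counts were 0, 1 and 0 with vehicle and 5, 8 and 9 with selinexor, below the filter for a test. The ratio of the sums per total count was 25.5, with an exact 95% interval of 4.13 to 1054 that covers counting error only. The selinexor level in OCI-AML2, 0.799 ± 0.186 CPM, remained under that of MOLM-13 with vehicle, 1.02 ± 0.36 CPM, though the ranges of libraries overlap and the tables were scaled separately.

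APOBEC3H is the one member whose promoter is in the RefSeq promoter table used here (GRCh38.p14, 1 of the 7 matched). The bases upstream of its start, chr22:39096994-39097223 on the plus strand, are shown because the gene had the largest increase among the members; capitals mark the one motif found.
APOBEC3H promoter: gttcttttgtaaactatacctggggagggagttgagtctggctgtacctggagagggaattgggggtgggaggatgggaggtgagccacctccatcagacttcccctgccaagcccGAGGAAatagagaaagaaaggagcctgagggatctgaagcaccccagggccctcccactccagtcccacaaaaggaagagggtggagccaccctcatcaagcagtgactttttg
The motif is GAGGAA, the core bound by the myeloid factor PU.1. It begins at 39097110, which is 114 bases before the GENCODE start of the gene and 134 bases before the RefSeq start (39097244) by which the table is built. The search covered the 250 bases before the RefSeq start, and 23.6% of the 35116 promoters in the table hold the motif there on either strand. No match in either strand was found to the interferon response element core (in 3.02% of promoters), the NF-kB consensus (0.179%), TTCNNNGAA (STAT, 6.57%), TTTGAA (the CHR element of the DREAM complex, 13.3%), TTTCGCGC, TTTGGCGC (both E2F, 0.439% and 0.55%) or CACGTG (E box, 6.34%). These are matches of letters in this window and say nothing about binding.

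APOBEC3D and APOBEC3A were at or near the floor. APOBEC3D, a paired-domain member, had 6 vehicle and 1 selinexor counts in OCI-AML2 over 3 libraries each, a ratio of 0.193 (exact 95% interval 0.0042 to 1.594), and 2 against 3 counts in MOLM-13. Another annotated gene, AL022318.4, covers 83.2% of the APOBEC3D exons on the same strand, so reads in that stretch cannot be given to either gene by position. APOBEC3A had 0 vehicle and 1 selinexor counts in OCI-AML2. No difference was detectable for either gene at this depth.

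**Figure D2:**
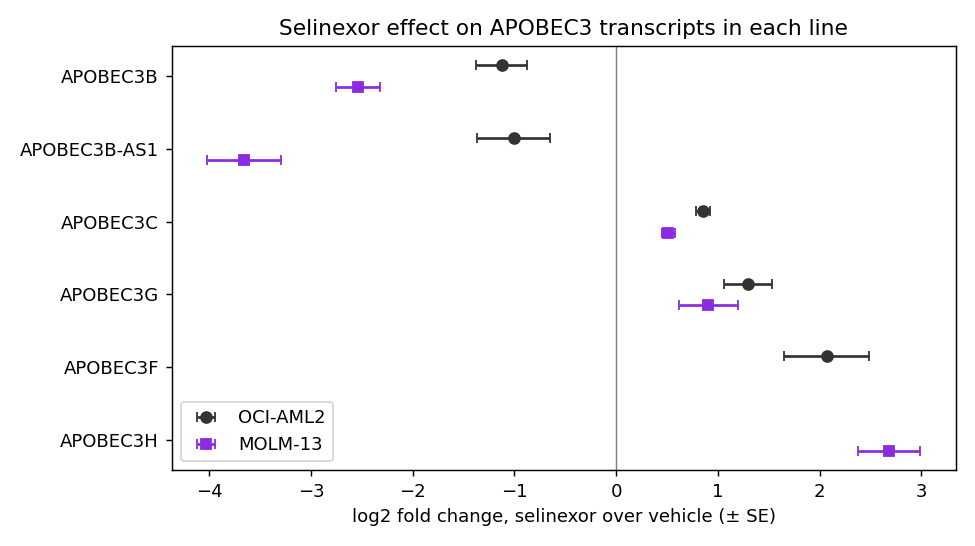
Log2 fold change of selinexor over vehicle (horizontal axis, point ± SE) of the members tested and of APOBEC3B-AS1, by gene on the vertical axis, with black circles for OCI-AML2 and purple squares for MOLM-13. APOBEC3B and its antisense gene lie left of 0 in both lines, further in MOLM-13 (-2.54 and -3.65), and the other members tested lie to the right. Genes that did not pass the filter in a line have no point there.

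A fit over the 12 libraries with line, treatment and their interaction tested 12530 genes, of which 30.1% were called as differing between the lines. Among the 5 members in that fit, APOBEC3B, APOBEC3C and APOBEC3F passed the threshold, and APOBEC3G and APOBEC3H (-1.59 ± 1.05) did not. Without MOLM-13 vehicle library 1, APOBEC3F (-2.19) no longer passed. APOBEC3F entered this fit through its OCI-AML2 selinexor libraries. Since the MOLM-13 values took part in the choice of the family, nothing is read from these calls.

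The make-up of the family was compared per kilobase of exon. With vehicle, the OCI-AML2 order was APOBEC3C (11.7 to 12.7 CPM per kb), APOBEC3B (2.5 to 3.42), APOBEC3G (0.335 to 0.544), APOBEC3F (0.138 to 0.318), APOBEC3D (0.0328 to 0.142) and APOBEC3H (0 to 0.0663). APOBEC3F overlapped APOBEC3D, and APOBEC3D overlapped APOBEC3H, in their ranges of libraries. In MOLM-13 with vehicle, APOBEC3C (17.9 to 19.3) and APOBEC3B (6.01 to 7.04) led again, before APOBEC3H (0.502 to 1.07), APOBEC3G (0.246 to 0.543) and APOBEC3F (0.135 to 0.3). APOBEC3H overlapped APOBEC3G, and APOBEC3G overlapped APOBEC3F, while APOBEC3D (0 to 0.0865) was last and below all APOBEC3F libraries.

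With selinexor, APOBEC3C was first in both lines, at 20.5 to 23 CPM per kb in OCI-AML2 and 25.9 to 28.4 in MOLM-13. In OCI-AML2 the members behind it, APOBEC3B (0.887 to 1.8), APOBEC3G (0.975 to 1.25), APOBEC3F (0.532 to 1.34) and APOBEC3H (0.471 to 0.756), could not be ordered beyond their spread, except that APOBEC3G and APOBEC3B lay above APOBEC3H. In MOLM-13, APOBEC3H (4.05 to 6.5) stood second and apart from APOBEC3B (0.879 to 1.38). APOBEC3G was at 0.747 to 0.763 in MOLM-13 over its 5437 exonic bases, but at 1.46 to 1.5 with the length of its longest transcript (2775 bases), which places it above APOBEC3B (0.904 to 1.42 by that measure); in OCI-AML2 with selinexor the same choice gives 1.91 to 2.45 against 0.912 to 1.85. The order of those 2 members with selinexor therefore depends on the length taken. The longest APOBEC3G transcript has 2 exons and is not the coding transcript used for the sequences above, whose length was not tried.

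As a share of the family's CPM per kb, APOBEC3B made up 18.2 ± 1.78% with vehicle and 5.06 ± 1.48% with selinexor in OCI-AML2, and 24.2 ± 0.906% and 3.32 ± 0.875% in MOLM-13 (SD, n = 3). APOBEC3C made up 77.0 ± 2.02% and 84.7 ± 1.43% in OCI-AML2, and 70.4 ± 1.33% and 78.8 ± 1.81% in MOLM-13. APOBEC3H took 3.02 ± 0.924% with vehicle and 15.1 ± 2.54% with selinexor in MOLM-13. In OCI-AML2 the family summed to 41.4 to 46.1 CPM in the vehicle libraries and to 69.1 to 77.3 CPM in the selinexor libraries. The MOLM-13 sums were 65.3 to 71.4 CPM and 84.9 to 94.2 CPM. The pool of family transcripts was thus larger with selinexor in every library of both lines, with APOBEC3C as most of it, while the APOBEC3B part shrank.

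**Figure D3:**
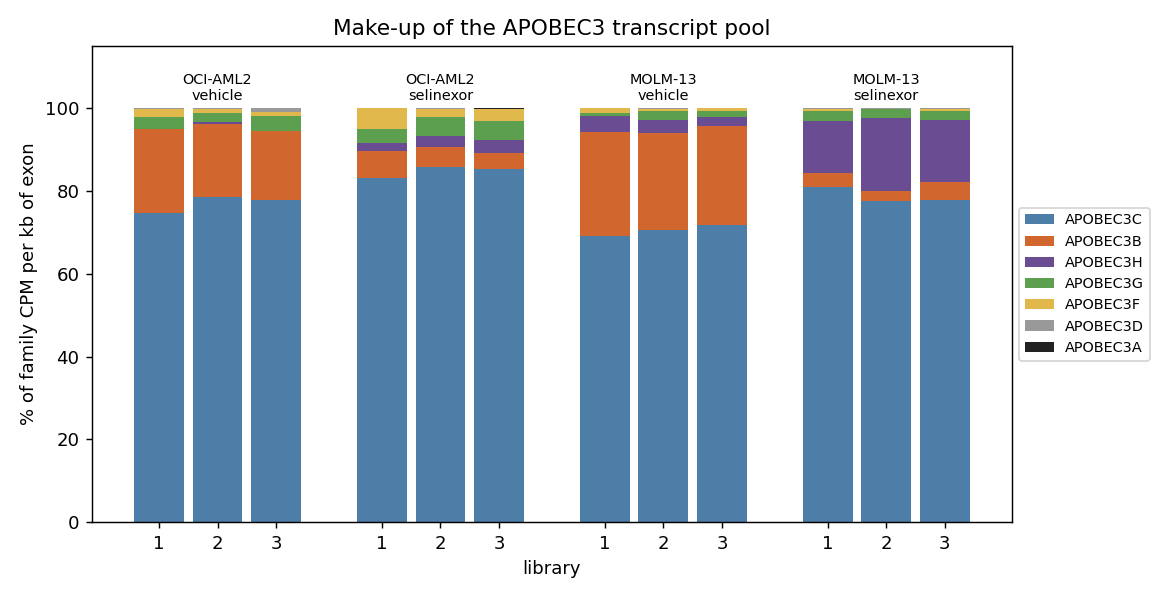
Make-up of the APOBEC3 transcripts in each library, as % of the family's CPM per kb of exon (vertical axis, stacked to 100), for the 3 libraries of each of the 4 groups. APOBEC3C is the largest part throughout, the APOBEC3B part is smaller with selinexor in all 6 selinexor libraries, and APOBEC3H becomes visible in MOLM-13 with selinexor at 12.7 to 17.7%.

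The genes around the cluster were set beside it to see which differences are shared across the locus. Of the 5 protein-coding genes on either side, 8 were tested in each line; 7 rose and 1 fell in OCI-AML2 (median log2 fold change 0.516), and in MOLM-13 5 rose and the remaining 3 did not pass the test (median 0.349). The median over all genes tested was -0.00156 and 0.00905. Of those genes, 31.3% and 31.8% rose and 31.8% fell in each line. In MOLM-13 the 5 of 8 neighbours called are near the 63.6% called over all genes, against 63.1% in OCI-AML2. CBX7, a Polycomb chromobox gene next to APOBEC3H, rose by a log2 fold change of 1.01 ± 0.201 in OCI-AML2 and of 0.86 ± 0.243 in MOLM-13. SYNGR1, a synaptogyrin gene, rose by 1.58 ± 0.0593 and 0.82 ± 0.13, and SUN2, of the inner nuclear membrane, by 0.83 ± 0.0407 and 0.37 ± 0.0464. CBX6, the nearest of these genes before APOBEC3A, fell in OCI-AML2 (-0.45 ± 0.0466) and rose in MOLM-13 (0.33 ± 0.0584). Among the genes tested across this stretch, APOBEC3B and APOBEC3B-AS1 were the only ones lower in both lines.

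**Figure D4:**
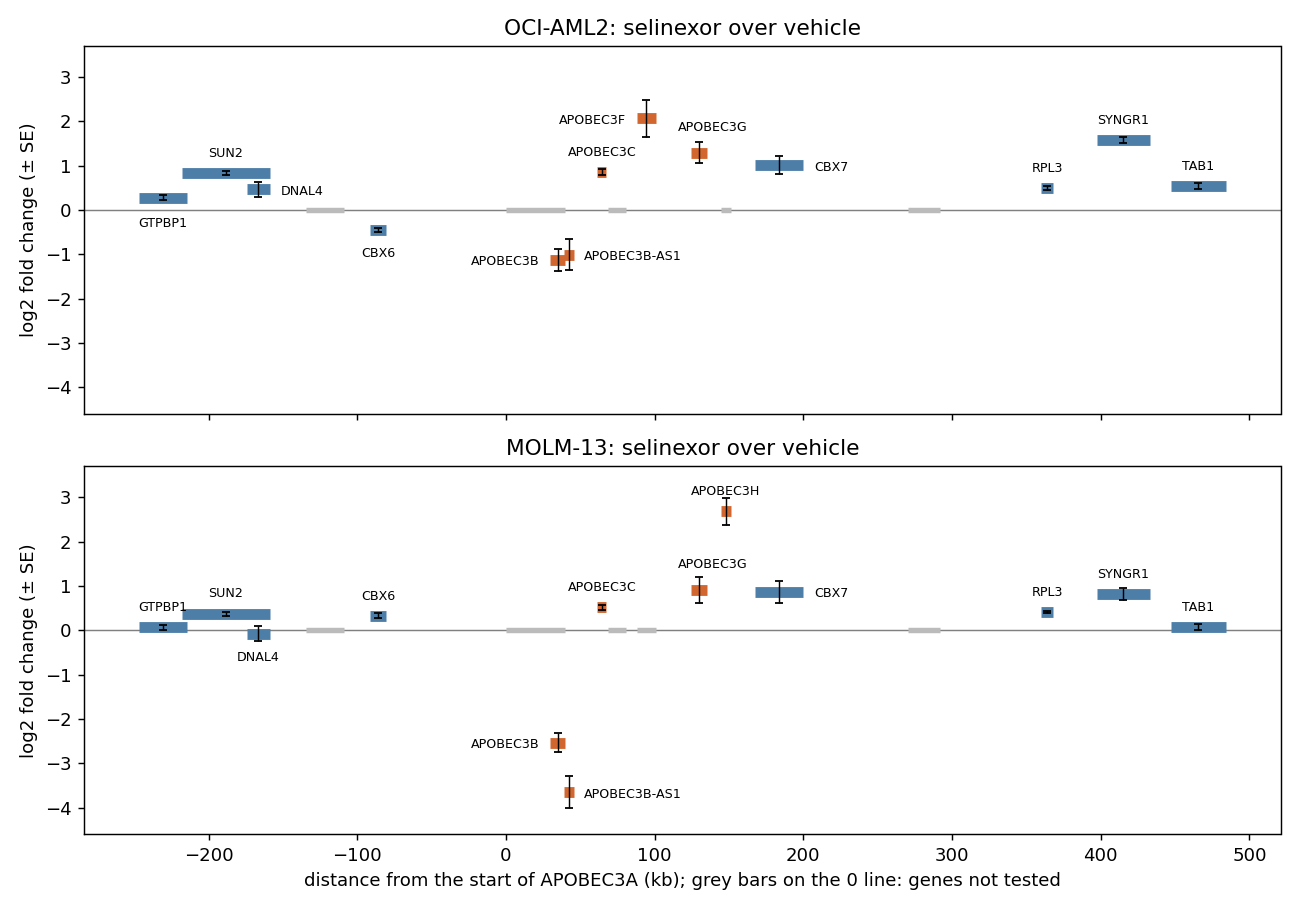
Log2 fold change of selinexor over vehicle (vertical axis, ± SE) of the APOBEC3 members and APOBEC3B-AS1 (orange) and 5 neighbours on each side (blue), drawn at their position and length along the chromosome (horizontal axis, kb from the start of APOBEC3A), OCI-AML2 above and MOLM-13 below; grey bars on the 0 line are genes not tested. APOBEC3B and APOBEC3B-AS1 lie below 0 in both panels, while the other members tested lie above it; CBX6 lies below 0 in OCI-AML2 (-0.45).

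Genes whose pattern over the 12 libraries was most like that of a member were listed by Pearson's r of log2(CPM + 0.5), centred within each line. For APOBEC3C, among 9461 genes, they were SIPA1L3 (r = 0.991), CERCAM (0.99), DPP7 (0.989), GPR18 (0.989) and CXCR4 (0.987). For APOBEC3B, which needed a lower level limit chosen after the data were seen (mean CPM of 3 in place of 5, 10104 genes), they were WEE1 (0.987), SPCS2 (0.986), RECQL4 (0.986), BARD1 (0.981) and FBXO33 (0.98). WEE1 is a kinase that holds back entry into mitosis, and RECQL4 and BARD1 act in DNA replication and repair. For APOBEC3G, with the same limit, they included DOCK2 (0.962), FNTA (0.962), CCNDBP1 (0.961) and DDX42 (0.959). These points share libraries and the treatment contrast, and the values are a description.

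Known regulators of APOBEC3B differed by list. Of the DREAM, MYB-MuvB and E2F genes, 2 rose and 14 fell among 18 tested in OCI-AML2 (median log2 fold change -0.45), and 3 rose and 14 fell among 19 in MOLM-13 (median -0.523). Over all genes tested, 31.3% rose and 31.8% fell in OCI-AML2, and 31.8% did each in MOLM-13, with medians of -0.00156 and 0.00905. MYBL2, which encodes B-MYB, fell by 1.17 ± 0.0429 in OCI-AML2 and by 1.88 ± 0.0465 in MOLM-13 on the log2 scale. FOXM1, a mitotic activator, fell by 1.32 ± 0.0668 and 1.79 ± 0.0746, E2F8 by 1.05 ± 0.0855 and 1.91 ± 0.116, E2F7 by 1.31 ± 0.134 and 1.47 ± 0.103, and E2F1 by 0.18 ± 0.0657 and 1.24 ± 0.0838. The risers were TFDP2 and RBL2, a pocket protein of the DREAM complex, in both lines, and LIN54 in MOLM-13. RBL2 rose by 0.44 ± 0.0503 and 0.42 ± 0.0516.

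The PRC1.6 list, which holds the E2F6 repressor, had members that rose and members that fell, 8 and 9 of 12 called beside 63.1% and 63.6% of all genes. In OCI-AML2, 3 of 12 rose (RING1, RYBP, EHMT2) and 5 fell (E2F6, L3MBTL2, PCGF6, RNF2, YAF2), with a median log2 fold change of -0.0984. In MOLM-13, 2 rose (MGA, RYBP) and 7 fell, with a median of -0.178. E2F6 itself fell by 0.39 ± 0.09 and 0.35 ± 0.108, and L3MBTL2, a chromatin reader of the complex, by 0.62 ± 0.0786 and 0.55 ± 0.0664. Of the NF-kB subunit genes, NFKB2 rose in both lines, REL rose in OCI-AML2 and RELB in MOLM-13, and NFKB1 fell in both. CDKN1A, the cyclin-dependent kinase inhibitor p21, rose by 1.49 ± 0.0581 and 1.53 ± 0.0405.

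Markers of dividing cells were lower with selinexor in both lines, as was APOBEC3B. All 9 (MKI67, TOP2A, CDK1, CCNB1, PCNA, MCM2, MCM3, TYMS and RRM2) fell in each line, with a median log2 fold change of -1.03 in OCI-AML2 and -1.77 in MOLM-13. Of all genes tested, 31.8% fell in each line, and their medians were -0.00156 and 0.00905. Summed over the 9, OCI-AML2 vehicle libraries held 3070 to 3140 CPM and selinexor libraries 1580 CPM. The MOLM-13 vehicle libraries held 2770 to 2790 CPM and the selinexor libraries 915 to 945 CPM. None of the 9 was at 0. The part of this in the APOBEC3B values was not tested.

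The uracil that APOBEC3 enzymes make is removed or bypassed by base excision and translesion factors. Most transcripts were lower in a list of these factors together with DUT, PARP1, FEN1 and the RPA genes, which do not themselves excise uracil. In OCI-AML2, 2 of 21 rose (SMUG1, APEX1) and 13 fell, with a median of -0.233. In MOLM-13, 4 of 21 rose (SMUG1, APEX1, REV3L, POLH) and 15 fell, with a median of -0.417. Beside these stand 31.3% and 31.8% of all genes tested that rose and 31.8% that fell in each line. The medians of all genes were -0.00156 and 0.00905. DUT, which clears dUTP, fell by 0.36 ± 0.0432 in OCI-AML2 and 1.21 ± 0.0453 in MOLM-13, and the flap endonuclease gene FEN1 by 0.62 ± 0.0551 and 1.22 ± 0.058. PARP1, a sensor of DNA breaks, fell by 0.65 ± 0.0379 and 0.54 ± 0.0334. The uracil glycosylase gene UNG did not pass the test in OCI-AML2 (log2 fold change -0.07 ± 0.0528) and fell by 0.62 ± 0.0672 in MOLM-13. The subunits RPA1 and RPA2 of the complex that coats single-stranded DNA, the substrate of these enzymes, fell by 0.27 ± 0.0449 and 0.21 ± 0.0581 in OCI-AML2 and by 0.64 ± 0.0441 and 0.66 ± 0.0551 in MOLM-13.

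Among other restriction factors against retroviruses and retroelements, more rose than fell. In OCI-AML2, 13 of 21 tested rose and 1 fell (TRIM28), with a median of 0.303, and in MOLM-13, 11 of 20 rose and 3 fell (TRIM28, SLFN11, IFITM2), with a median of 0.226. The 14 genes called in each line stand beside 63.1% and 63.6% called over all genes, shares near those of the list. By direction, 31.3% and 31.8% of all genes rose and 31.8% fell in each line. TRIM22, an interferon-induced factor, was at 51.8 ± 0.488 CPM in OCI-AML2 vehicle and rose to 257 ± 5.86 CPM, and in MOLM-13 it went from 30.7 ± 1.05 up to 332 ± 12.6 CPM (SD, n = 3). BST2, which tethers budding virions, had log2 fold changes of 1.46 ± 0.081 and 1.20 ± 0.0543, a rise in each line, and SAMHD1, which depletes deoxynucleotides, rose by 1.01 ± 0.046 and 1.55 ± 0.0868. TRIM28, a corepressor that silences retroelements, fell by 0.45 ± 0.0396 and 0.57 ± 0.033.

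Interferon is a known inducer of several APOBEC3 genes, so its pathway was set beside them. Of 11 signalling genes tested, 7 rose and the other 4 did not pass in OCI-AML2 (median 0.223), and 5 rose and 1 fell (IRF3) in MOLM-13 (median 0.187). STAT2, a transducer of the interferon receptor, rose by 1.28 ± 0.0785 and 1.32 ± 0.0746. Of the interferon-stimulated genes, 13 of 18 tested rose and 2 fell (ISG20, USP18) in OCI-AML2 (median 0.614), and 7 of 16 rose and 1 fell (USP18) in MOLM-13 (median 0.379). Over all genes tested 63.1% and 63.6% were called, 31.3% and 31.8% higher and 31.8% lower in each line. Called in either direction, these lists were near or below that share, except for 15 of 18 interferon-stimulated genes in OCI-AML2. Of those 15, ISG20 passed the filter through its vehicle libraries, and OASL and LGALS3BP through their selinexor libraries, so nothing is read from the count. In MOLM-13, the risers IFI6, RSAD2 and LGALS3BP passed through their selinexor libraries, and USP18, which fell, through its vehicle libraries. Nothing is read from the MOLM-13 count or its median either. LGALS3BP, a secreted glycoprotein, was higher by 2.11 ± 0.449 and 3.98 ± 0.373, on 16 and 12 vehicle counts. It passed the filter through its selinexor libraries in both lines.

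The nearest relatives outside the family gave few counts. APOBEC1 and APOBEC4 have no row in either table, and APOBEC2 had 0 vehicle and 4 selinexor counts in OCI-AML2 and 8 and 5 in MOLM-13. Of 8 other deaminases, CDA (30.5 ± 0.935 to 66.1 ± 1.28 CPM) and ADARB1 rose in OCI-AML2, and DCTD and ADAR fell. In MOLM-13, ADARB1, ADAT2 and ADAT3 rose and DCTD fell, out of 7 tested, and the 2 groups overlapped for ADAT3. CDA was not tested in MOLM-13, where it had 5 vehicle and 3 selinexor counts. The 4 deaminases called in each line stand beside 63.1% and 63.6% called over all genes tested, so nothing is read from these counts.

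The lines were checked against markers of the cells they are labelled as and of others that carry APOBEC3 transcripts. Of 8 myeloid markers, 7 passed the filter in each line, and ANPEP was at the floor with 2 and 3 vehicle counts. Their sum in OCI-AML2 was 2640 to 2820 CPM in vehicle libraries and 10800 to 11100 CPM in selinexor libraries. Most of that gain was LYZ, the lysozyme gene, which rose from 1733 ± 106 to 9571 ± 146 CPM (SD, n = 3), while MPO fell (log2 fold change -0.53 ± 0.151) and CD33 did not pass the test. In MOLM-13 the sum was 1260 to 1290 CPM and 2880 to 2910 CPM, and all 7 rose, beside 31.8% of all genes tested. T and NK cells are rich in APOBEC3G and APOBEC3H, and 8 of their markers summed to 11.6 to 13.1 CPM (vehicle) and 13.9 to 18.5 CPM (selinexor) in OCI-AML2. Most of that sum was NKG7, at 11.4 ± 0.852 and 15.7 ± 2.15 CPM (SD), which rose (log2 fold change 0.45 ± 0.13). In MOLM-13 the sums were 11 to 14.1 CPM and 12.9 to 15.1 CPM. CD2 and CD3E have no row for either line, nor have CD3D and CD7 for OCI-AML2. B cell markers summed to at most 10 CPM and erythroid markers to at most 0.486 CPM, with no row for MS4A1, HBA1, HBA2 and HBB. The 2 B cell markers tested in OCI-AML2 were higher, PAX5 by 1.02 ± 0.222 and CD79B by 2.15 ± 0.555. CD79B had 10 vehicle counts and passed the filter through its selinexor libraries. In MOLM-13 the 1 tested was not called.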

How the data were processed

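Whole-number counts per gene symbol were deposited by the authors, 1 table per line with 3 vehicle and 3 selinexor libraries. Per the labels' protocols, poly(A) RNA was used without marking strand. The submitters' processing notes name STAR, hg38, R 3.6.1 and DESeq2. Which tool and gene models gave the counts is not given in the sources used here. For MOLM-13 the authors also deposited log2 fold changes, as vehicle over selinexor, and the sign was turned here. The initial of each table gave the line, and the letter of each column the treatment. Libraries are numbered by column, as names only.

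The 7 members and all lists were chosen with earlier results of these data known. Each line was fitted alone over all genes with edgeR 4.0.16 (R 4.3.3), using TMM factors, the filterByExpr limits of 10 counts and 15 in total, robust quasi-likelihood F tests, Benjamini-Hochberg adjusted p under 0.05, SE as the fold change over the root of F. The line by treatment interaction used the 12 libraries. If the libraries of a group are not separate cultures, p-values measure technical spread. Ratios of low counts have exact (Clopper-Pearson) 95% intervals, which cover counting error only, since reads without molecular identifiers are not independent molecules.

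From each list at most 6 genes are named, those with the smallest p in either line, plus any left by a count of 5 or fewer, for neighbours and cell type markers too. MKI67 to RRM2 are all named as 1 marker list, and REL, RBL2, TFDP2 and other genes given as the few risers or fallers of a list were chosen after their values were seen. UNG was likewise added after its values were seen, for its role. A few that qualify are not reported here. Levels per kb use the union of GENCODE 29 exons. Sequences are from GENCODE 29 transcripts and the RefSeq promoter table.

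Alternatives were DESeq2 size factors, upper quartile scaling, no filter, DESeq2 1.42.0, limma voom (limma 3.58.1), a joint fit, the longest transcript as length, plain library totals, and leaving out each library. In simulated counts, the fit recovered 67 of 72 genes changed 2-fold in OCI-AML2 (93.1%, 11984 genes), 62 of 71 in MOLM-13 (87.3%, 11720 genes) and, for the line by treatment interaction, 57 of 73 (78.1%, 12293 genes), and called 13 unchanged genes in each. Far fewer genes were changed there than in the data, where 63.1% and 63.6% of genes were called in the 2 lines. These rates therefore do not cover the setting of the data, and genes at a few CPM were not looked at apart.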

Additional observations from a re-analysis of the deposited data

Results flagged for a closer look

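The interaction of line and treatment in edgeR passed its threshold for APOBEC3B, APOBEC3C and APOBEC3F. The MOLM-13 values that enter it took part in the choice of the family, so these are descriptions and no evidence of a difference. For APOBEC3B the difference in log2 fold change, MOLM-13 minus OCI-AML2, was -1.46, with a larger decrease in MOLM-13 (-2.54) than in OCI-AML2 (-1.12). For APOBEC3C it was -0.391, with an increase in both lines that was smaller in MOLM-13. For APOBEC3F it was -2.57, with 21 vehicle and 74 selinexor counts in OCI-AML2 and 17 and 12 in MOLM-13. APOBEC3F entered through its OCI-AML2 selinexor libraries, and without MOLM-13 vehicle library 1 its difference (-2.19) did not pass the threshold. Line and dose cannot be told apart in all 3.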

How the results depend on the processing

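No paired analysis was possible because the columns of the count tables carry no replicate numbers. Of 245 values recomputed over 23 results, 239 were labelled unchanged and 0 reversed. Fold changes counted as unchanged if they kept their direction and their side of the threshold, and shares if they moved by less than 1 SD. Numbers of called genes counted as unchanged within a set ratio of the main number. Without MOLM-13 vehicle library 1, the APOBEC3G log2 fold change in MOLM-13 was 0.67 and the APOBEC3F difference between the lines was -2.19, and neither was past the threshold; fewer libraries enter these fits. Leaving out each library in turn, APOBEC3G in MOLM-13 ranged from 0.67 to 1.19, the APOBEC3F difference from -2.91 to -2.10, and APOBEC3B in OCI-AML2 from -1.39 to -0.89. With the longest transcript as the length, the APOBEC3C share was 74.3% and 80.3% in OCI-AML2 with vehicle and selinexor, and 68.5% and 74.8% in MOLM-13. Leaving out libraries gave 7032 to 7548 called genes in OCI-AML2, 7045 to 7281 in MOLM-13 and 3333 to 3727 for the difference. The other settings gave 6734 to 7760, 6668 to 7688 and 3085 to 3810. Depth limits APOBEC3A, APOBEC3D, APOBEC3F in MOLM-13 and APOBEC3H in OCI-AML2, which have at most 22 counts in any group.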
